A study of Mus musculus with 6 samples.

Results

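The enzymes that convert or methylate arginine side chains of proteins were examined in sorted cortical cells after stroke. They comprise 10 genes, chosen by name: the peptidylarginine deiminases Padi2 and Padi4, and the protein arginine methyltransferases Prmt1, Prmt2, Prmt3, Prmt5, Prmt6, Prmt7, Prmt8 and Carm1. All 10 have a row in the deposited table of 24419 genes. Male wild-type C57BL/6N mice underwent 60 min of middle cerebral artery occlusion, which both groups share. They then received intravenous vehicle or 600 ng of 15-HETrE, a hydroxylated fatty acid, in 150 µL of phosphate-buffered saline at 24, 48 and 72 h. On day 4 the peri-infarct cortex was dissociated with pronase for 75 min, and cells positive for Thy1 and negative for ACSA2, CD31, CD45 and O4 were sorted. RNA was sequenced from 3 libraries of vehicle and 3 of 15-HETrE mice, and the labels do not say whether a library is 1 animal, so p-values measure the spread between libraries, which may be technical. The comparison asks which transcripts of these cells differ between the treatments.

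Deiminases turn the positively charged arginine of a protein into neutral citrulline, with calcium as a cofactor. Padi2 is known as the deiminase of the brain, where oligodendrocytes carry it and myelin basic protein is its best-known substrate, and Padi4 is known for citrullinating histones in the nucleus of neutrophils. Methyltransferases place methyl groups from S-adenosylmethionine on the same residue. Type I enzymes (Prmt1, Prmt2, Prmt3, Prmt6, Prmt8 and Carm1) make asymmetric dimethylarginine, type II enzymes such as Prmt5 make symmetric dimethylarginine, and Prmt7, of type III, makes monomethylarginine. Prmt1 is the main type I enzyme of most cells, and Prmt8 is its close paralog, known for its expression in neurons and its attachment to the plasma membrane.

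The libraries are called by their column names: vehicle 1, vehicle 2 and 15-HETrE 1 share a first name prefix, 15-HETrE unnumbered has a prefix of its own, and vehicle combined and 15-HETrE combined carry that word. They held 5405245 to 22558400 reads assigned to genes, with the lowest depth in vehicle combined. All 15 pan-neuronal markers examined were detected in every library, with a mean log2(CPM + 1) of 6.41 to 7.29 in vehicle and 7.18 to 7.88 in 15-HETrE libraries. Markers of other cell types were present too. The 12 mature oligodendrocyte markers stood at 9.0 to 9.60 and 9.07 to 10.17, and 7 fibroblast markers at 2.40 to 8.22 and 2.42 to 6.38, where vehicle 1 and vehicle 2 were the highest and vehicle combined the lowest library. None of the genes tested in any of the 17 lists followed here passed limma's test. In such bulk samples, fewer cells of a type and less RNA per cell cannot be told apart.

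Of the 5 deiminase genes of the mouse, which lie next to each other on chromosome 4, Padi2 alone reached the mean of 1 CPM required for testing. Padi4 (ENSMUSG00000025330.6, chromosome 4, 140745865 to 140774236, GRCm38) had 0 reads in all 6 libraries, out of 94865575 reads in all. For a count of 0 the exact Poisson interval reaches up to 0.166 to 0.663 CPM depending on the library (95%, two-sided), and this limit covers counting error only. A difference in Padi4 between 15-HETrE and vehicle was not detectable at this depth. Its neighbours Padi3 and Padi1 were also at 0 in every library, and 22.0% of all genes in the table were. Padi6, an oocyte deiminase, had 2, 25 and 0 reads in vehicle 1, vehicle 2 and vehicle combined and 1, 0 and 1 reads in 15-HETrE 1, unnumbered and combined. None of the 2267 stretches of 50 bases in the Padi4 transcripts of the GENCODE M21 annotation occurs in another gene. Genes with shared sequence can also be near 0 in this table: Eno1, a glycolytic enzyme of all cells, had 1 read in all, and 49.5% of its stretches of 50 bases occur in another gene. Of the 11 neutrophil markers in the table, 2 to 10 were at 0 in each library, and their summed level was 1.67 to 8.27 CPM.

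The bases before the starts of Padi2, which had reads, and of Padi4, which had none, are shown because they differ in CG dinucleotides, which are in capitals. Both are from the RefSeq promoter table (GRCm38.p6), are read 5′ to 3′ on the gene's own strand, and end before the start of the gene in both RefSeq and GENCODE. Padi2 is on the + strand and Padi4 on the - strand.
Padi2, chr4:140906110-140906343: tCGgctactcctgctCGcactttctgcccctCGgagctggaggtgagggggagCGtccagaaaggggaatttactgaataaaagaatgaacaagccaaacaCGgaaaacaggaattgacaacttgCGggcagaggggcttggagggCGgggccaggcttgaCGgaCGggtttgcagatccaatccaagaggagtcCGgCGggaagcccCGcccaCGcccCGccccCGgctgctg
Padi4, chr4:140774237-140774453: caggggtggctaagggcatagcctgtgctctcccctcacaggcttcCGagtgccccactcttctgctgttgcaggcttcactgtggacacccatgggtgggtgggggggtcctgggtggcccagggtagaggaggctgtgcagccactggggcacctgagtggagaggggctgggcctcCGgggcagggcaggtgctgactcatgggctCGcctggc
The Padi2 stretch of 234 bases holds 15 CG and the Padi4 stretch of 217 bases holds 3. Over the full 250 bases before the RefSeq start the counts were 17 and 3, and 23.6% and 70.4% of 27025 promoters held at least as many. The windows of Padi3 and Padi1, also without reads, held 3 and 0 CG, and that of Padi6, with 29 reads in all, held 1. Those of the 7 methyltransferases with a RefSeq entry held 13 to 37, with 37 at Prmt8. Carm1 had no entry. Among 17224 genes of the table with such a window, the share that reached the mean of 1 CPM required for testing was compared. It was 23.0% of those with 0 to 4 CG, the class of Padi4, and 88.5% of those with 10 to 19, the class of Padi2. For those with 20 or more it was 92.9%. At 0 in all libraries were 49.5% of the genes with 0 to 4 CG and 2.86% of those with 10 to 19. A CG count describes these letters only, and binding or methylation at them was not measured.

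Padi2 (ENSMUSG00000028927.6, chromosome 4, 140906344 to 140952586) had 21.7 CPM in vehicle 1, 28.2 in vehicle 2, and 33.3 in vehicle combined. CPM are the deposited scaled counts, which include a factor per library applied by the authors. In the 15-HETrE libraries it stood at 26.8 CPM in 15-HETrE 1, 66.1 CPM in the unnumbered library and 70.0 CPM in the combined library. The unnumbered and combined libraries were above every vehicle library, while 15-HETrE 1 lay inside the vehicle range, so the groups overlapped. The group levels were 27.7 ± 5.80 and 54.3 ± 23.9 CPM (SD, n = 3 per group; vehicle is given first here and in later pairs). On the log2(CPM + 1) scale the difference was 0.85 (SE 0.41, 95% interval -0.07 to 1.77), with an adjusted p of 0.565 in limma over all genes tested. Among the libraries of the first prefix the difference was 0.11, and it was 1.05 between the combined libraries. With library weights, which gave 15-HETrE 1 the second-highest weight, it was 0.34, and without 15-HETrE 1 it was 1.29 (adjusted p 0.747, limma).

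Padi2 was set against the oligodendrocyte markers, the transcripts of the cells that usually carry it. For each 1000 CPM of the 12 summed markers, there were 1.33, 1.14 and 1.39 CPM of Padi2 in vehicle 1, vehicle 2 and vehicle combined. The 15-HETrE libraries had 1.53, 1.93 and 3.12 CPM in 15-HETrE 1, unnumbered and combined. All 3 values lay above all vehicle values, a difference of 0.71 in the log2 ratio with an exact permutation p of 0.1 (two-sided), the smallest that 3 against 3 can give. With the mean of the log2 values of the markers in place of their sum, the difference was 0.62 and the exact permutation p was 0.3. The markers at the smallest p in limma were Ugt8a, an enzyme of myelin lipid synthesis (adjusted p 0.505), Aspa (0.697) and Cnp (0.720). The 9 astrocyte markers were highest in the combined libraries: their mean log2 level was 8.08 in vehicle combined and 9.07 in 15-HETrE combined, against 5.19 to 6.54 in the other libraries. Whether they account for Padi2 was not tested.

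**Figure D1:**
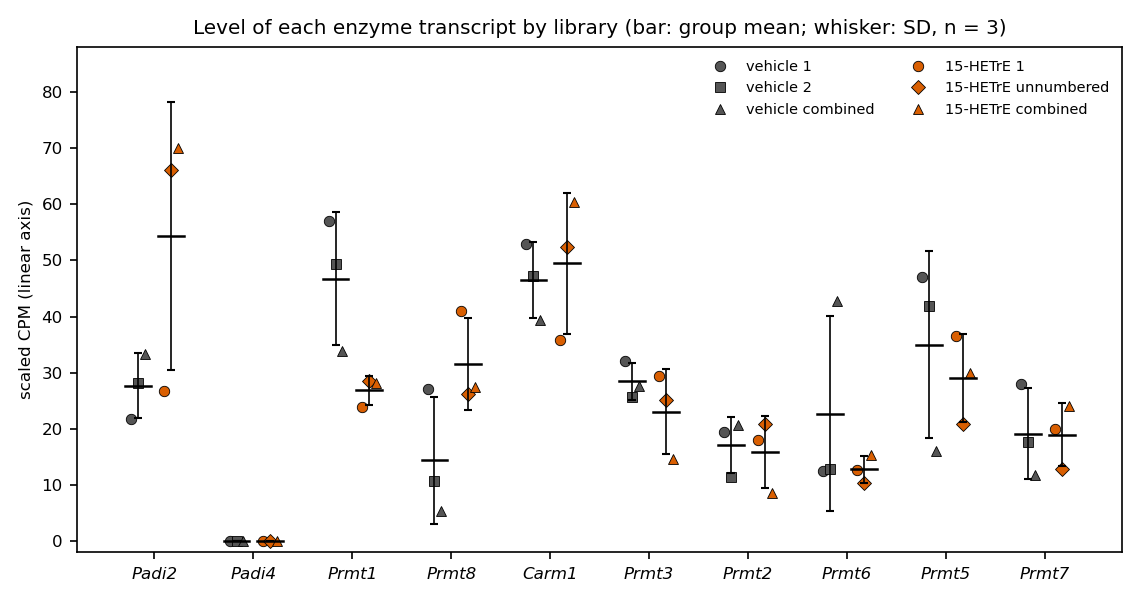
Scaled CPM (linear axis) of the 10 enzyme transcripts, with 1 point for each of the 6 libraries. Grey points are vehicle and orange points 15-HETrE libraries, horizontal bars are group means and whiskers the SD (n = 3). Prmt1 is the only gene with reads whose groups do not overlap, with 33.8 to 57.1 CPM in vehicle and 23.9 to 28.6 CPM in 15-HETrE libraries. Of all genes tested, 8.32% were lower and 6.84% higher in 15-HETrE without overlap. Padi4 is at 0 throughout.

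Among the type I enzymes, limma over all 6 libraries estimated Prmt8 higher and Prmt1 lower in 15-HETrE, and neither passed the adjusted test with all libraries weighted alike. Prmt1 (ENSMUSG00000109324.2, chromosome 7, 44975989 to 44986568) had 57.1 CPM in vehicle 1, 49.3 in vehicle 2 and 33.8 in vehicle combined. With 15-HETrE it had 23.9 CPM in library 1, 28.6 in the unnumbered and 28.1 in the combined one. All 15-HETrE libraries were below all vehicle libraries. Prmt1 was the only member without overlap in either direction, 1 of 9 tested. Of all 14523 genes tested, 8.32% did not overlap in that direction and a further 6.84% in the other. The group levels were 46.7 ± 11.8 and 26.9 ± 2.61 CPM, a log2 difference of -0.75 (SE 0.33, 95% interval -1.48 to -0.01, unadjusted p 0.0464, adjusted p 0.520, limma). The first prefix gave -1.12 and the combined libraries -0.26.

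Prmt8 (ENSMUSG00000030350.8, chromosome 6, 127689011 to 127769472) stood at 27.1 CPM in vehicle 1, 10.7 CPM in vehicle 2 and 5.40 CPM in vehicle combined. The last value rests on 30 reads, with an exact Poisson interval of 3.64 to 7.70 CPM (95%, counting error only). The 15-HETrE libraries stood at 41.1 CPM in 15-HETrE 1, 26.1 CPM in the unnumbered library and 27.4 CPM in the combined library. Vehicle 1 and 15-HETrE unnumbered lay within each other's counting intervals and the groups overlapped there, while vehicle 2 and vehicle combined were below every 15-HETrE library. The group levels were 14.4 ± 11.3 and 31.5 ± 8.27 CPM, and the log2 difference was 1.32 (SE 0.55, 95% interval 0.08 to 2.55, unadjusted p 0.0387, adjusted p 0.507, limma). The first prefix gave 1.21 and the combined libraries 2.15. Without vehicle combined it was 0.81, and without vehicle 1 it was 1.88.

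No member passed limma's test at an adjusted p of 0.05, and 0% of all genes tested did. At an unadjusted p under 0.05, 1 of the 9 members was higher in 15-HETrE (Prmt8) and 1 lower (Prmt1), where 4.27% of all genes were higher, 5.23% lower and 9.5% either. The quasi-likelihood test of edgeR, run on recovered reads, called 0 members and 0% of all genes at an adjusted p of 0.05. At its unadjusted p, Padi2 and Prmt1 were under 0.05, with p of 0.0428 and 0.0354, and 8.48% of all genes were. DESeq2 called 0 members and 1.14% of all genes, and had the same pair under an unadjusted p of 0.05, as 10.7% of all genes. The library weights of limma changed the call: Prmt1 was then lower (-1.01, adjusted p 0.00798) and Prmt8 higher (1.34, adjusted p 0.0303), along with 16.7% of all genes. They gave vehicle combined the lowest weight at 0.206, and 15-HETrE unnumbered and combined 0.508 and 0.441. The first-prefix libraries vehicle 2, 15-HETrE 1 and vehicle 1 had 3.75, 3.16 and 1.82. The 15-HETrE side of this fit thus rested mostly on 15-HETrE 1. Over the 19 alternatives, the adjusted p lay between 0.00798 and 0.910 for Prmt1, between 0.0303 and 0.910 for Prmt8 and between 0.364 and 0.910 for Padi2, with limma, edgeR or DESeq2.

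**Figure D2:**
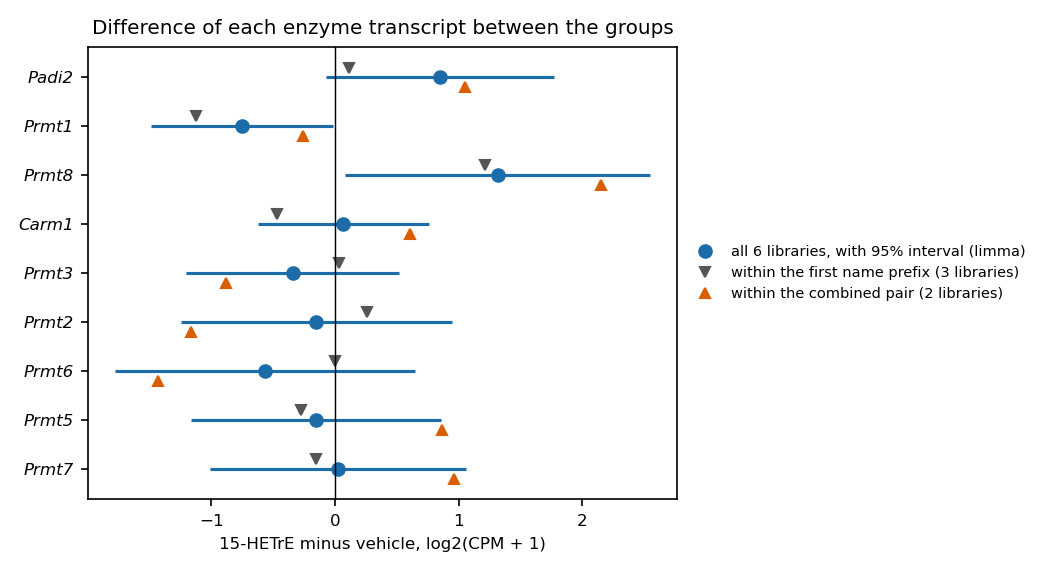
Difference between 15-HETrE and vehicle for the 9 enzymes tested, on the log2(CPM + 1) scale. Blue points and lines are the limma estimates with their 95% intervals, grey triangles the difference within the first name prefix, and orange triangles that within the combined pair. The within-prefix values have the same sign for 3 genes, Padi2, Prmt1 and Prmt8, and opposite signs for the other 6. They use libraries that also enter the limma estimates, so they are not an independent check. The combined pair is a single library per group, and the share of all genes with the same sign was not computed.

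Because Prmt1 and Prmt8 are paralogs that make the same product, their levels were set against each other per kilobase of exon. The ratio of Prmt8 to Prmt1 was 0.397, 0.181 and 0.133 in vehicle 1, vehicle 2 and vehicle combined. It was 1.44, 0.764 and 0.816 in 15-HETrE 1, unnumbered and combined. The log2 ratio differed by 2.18, and by 1.85 to 2.63 with 1 library left out. This ratio restates the differences of its 2 genes, was chosen with them known, and is given as a description, with no test. Prmt1 made up 33.2%, 37.2% and 24.99% of the summed per-kilobase level of the 6 type I enzymes in vehicle 1, vehicle 2 and vehicle combined, and 17.7%, 20.9% and 22.9% in 15-HETrE 1, unnumbered and combined. Prmt8 made up 13.2%, 6.74% and 3.33% in the vehicle libraries and 25.4%, 16.0% and 18.7% in the 15-HETrE libraries, in the same order. The sum itself was 58.3 to 75.5 CPM per kilobase in vehicle and 53.9 to 60.0 in 15-HETrE libraries, and these ranges overlapped. No stretch of 50 bases is shared between the transcripts of any pair of members.

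**Figure D3:**
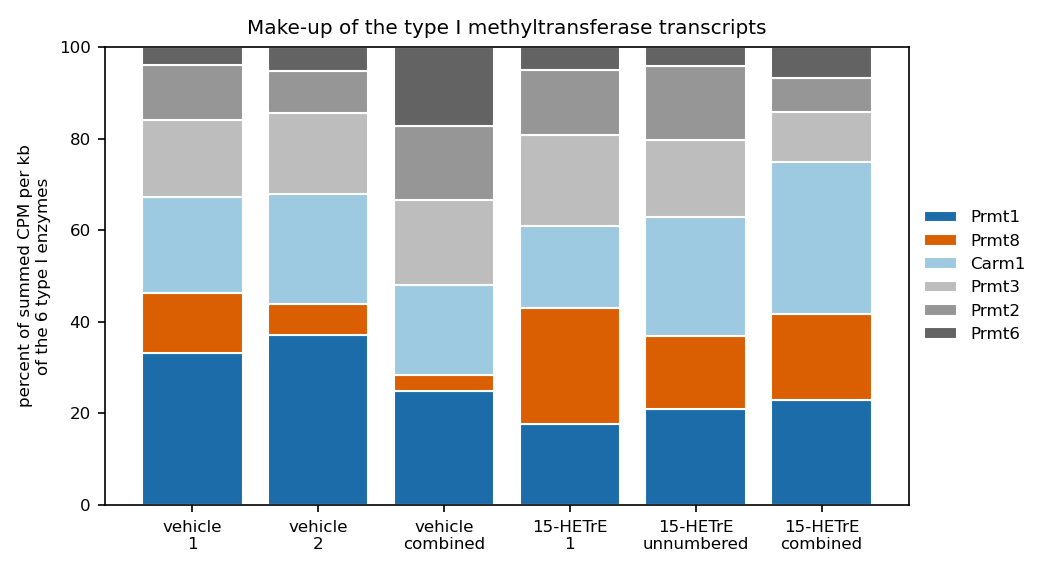
Share of each type I enzyme in the summed CPM per kilobase of the 6 type I enzymes (y axis, percent) in each library (x axis). Prmt1 takes 24.99% to 37.2% in the vehicle and 17.7% to 22.9% in the 15-HETrE libraries, and Prmt8 takes 3.33% to 13.2% and 16.0% to 25.4%.

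Levels of other transcripts are given beside both genes, and no gene of these lists passed limma's test. The 12 dividing-cell genes had a mean log2 level of 5.32, 5.34 and 4.48 in vehicle 1, vehicle 2 and vehicle combined and of 3.56, 3.60 and 2.51 in 15-HETrE 1, unnumbered and combined. Mki67, a protein of proliferating nuclei, stood at 248.5 ± 21.1 and 55.3 ± 16.0 CPM (adjusted p 0.131, limma). Vehicle 1 and vehicle 2 were the highest libraries on both this list and Prmt1, and on the fibroblast markers too, at 8.22 and 7.94. The lowest library differed: 15-HETrE combined on this list, with Prmt1 at 28.1 CPM, and 15-HETrE 1 on Prmt1, at 23.9 CPM. Like the dividing-cell genes, the 6 pericyte markers did not overlap between the groups in mean log2 level. They stood at 6.65 to 7.07 in vehicle and 4.52 to 6.05 in 15-HETrE libraries. The 6 endothelial markers did not overlap either, at 3.21 to 3.53 and 2.46 to 3.15. Nor did the 11 neutrophil markers, at low levels of 0.29 to 0.44 and 0.16 to 0.23. Such a separation was thus not particular to the dividing-cell genes or the pericyte markers. The libraries lowest on the pan-neuronal markers, vehicle 2 at 6.41 and vehicle combined at 6.69, were the lowest on Prmt8 too. Their order on Prmt8 was the reverse, with 10.7 CPM in vehicle 2 and 5.40 CPM in vehicle combined. Rbfox3, the nuclear antigen NeuN, stood at 74.5 ± 29.1 and 160 ± 39.8 CPM (adjusted p 0.400, limma). For each 1000 CPM of the summed pan-neuronal markers there were 6.69, 4.59 and 1.64 CPM of Prmt8 in vehicle 1, vehicle 2 and vehicle combined and 5.77, 6.97 and 3.95 CPM in 15-HETrE 1, unnumbered and combined. These ranges overlapped, with a log2 difference of 0.55 (exact permutation p 0.6, two-sided), which was -0.034 without vehicle combined. The part of dividing cells in Prmt1 and of neurons in Prmt8 was not tested further.

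**Figure D4:**
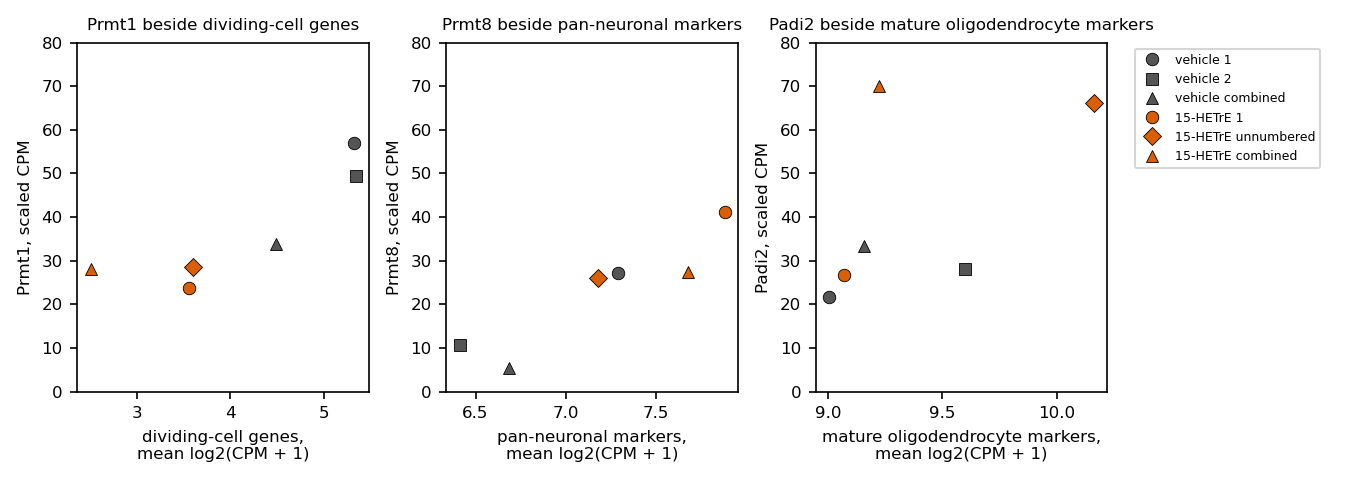
Scaled CPM of Prmt1, Prmt8 and Padi2 (y axes) against the mean log2(CPM + 1) of dividing-cell genes, pan-neuronal markers and mature oligodendrocyte markers (x axes), 1 point per library, grey for vehicle and orange for 15-HETrE. Vehicle 1 and vehicle 2 are at the upper right of the Prmt1 panel, with 57.1 and 49.3 CPM. 15-HETrE combined is furthest left there, with 28.1 CPM, above 15-HETrE 1 at 23.9 CPM. In the Padi2 panel 15-HETrE combined is the highest, 70.0 CPM, at an oligodendrocyte level of 9.22.

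The other 4 type I enzymes had log2 differences between -0.57 and 0.07. Carm1 (ENSMUSG00000032185.15, chromosome 9, 21546894 to 21592623), a coactivator of transcription that methylates histone H3, stood at 46.5 ± 6.80 and 49.5 ± 12.6 CPM. Its log2 difference was 0.07 (95% interval -0.63 to 0.76, adjusted p 0.957, limma), and its libraries spanned 35.8 to 60.4 CPM. Yipf2 covers 23.9% of its exon bases on the other strand, and the sources used here do not say whether the counting used strand, so Carm1 is uncertain to that extent. Prmt3 (ENSMUSG00000030505.17, chromosome 7, 49778346 to 49858265), a cytosolic enzyme that methylates ribosomal protein S2, stood at 28.5 ± 3.24 and 23.0 ± 7.61 CPM. 15-HETrE combined was its lowest library at 14.6 CPM, and the other 5 lay between 25.2 and 32 CPM. Prmt2 (ENSMUSG00000020230.15, chromosome 10, 76207222 to 76237865), an enzyme with an SH3 domain, stood at 17.2 ± 4.99 and 15.9 ± 6.43 CPM, with 8.65 CPM in 15-HETrE combined as its lowest value.

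Prmt6 (ENSMUSG00000049300.11, chromosome 3, 110246109 to 110250998), which methylates histone H3 at arginine, had 12.5 CPM in vehicle 1, 12.9 in vehicle 2 and 42.8 in vehicle combined. With 15-HETrE it had 12.7 CPM in library 1, 10.3 in the unnumbered and 15.3 in the combined one. Vehicle combined alone was high, above all other libraries. The log2 difference of -0.57 (SE 0.55, adjusted p 0.759, limma) was -0.0080 without that library. The value of vehicle combined rests on 238 reads (exact Poisson interval 37.5 to 48.6 CPM, counting error only). An antisense gene, C130013H08Rik, covers 23.5% of the exon bases of Prmt6 and has no row of its own in the table, so its reads cannot be told apart from those of Prmt6 if strand was not used.

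Prmt5 (ENSMUSG00000023110.12, chromosome 14, 54507187 to 54517525), the main maker of symmetric dimethylarginine on histones and Sm proteins of the spliceosome, had 47.1 CPM in vehicle 1, 41.9 in vehicle 2 and 16.0 in vehicle combined. With 15-HETrE it had 36.6 CPM in library 1, 20.9 in the unnumbered and 29.9 in the combined one. All 3 of these lay inside the vehicle range, and the log2 difference was -0.16 (95% interval -1.17 to 0.86, adjusted p 0.936, limma). Prmt7 (ENSMUSG00000060098.11, chromosome 8, 106210936 to 106252794), the type III enzyme, had 19.2 ± 8.12 and 18.96 ± 5.65 CPM, a log2 difference of 0.02 (95% interval -1.01 to 1.06, adjusted p 0.990, limma). For Prmt5 and Prmt7 the within-prefix differences had opposite signs, -0.27 and 0.86 for Prmt5 and -0.15 and 0.96 for Prmt7. These intervals reach 2-fold differences in at least 1 direction, so a p above the threshold does not show that the levels were alike. Prmt9, the other type II enzyme, which the table lists under its older symbol Prmt10, stood at 19.9 ± 8.55 and 22.9 ± 2.83 CPM. With it, Ndufaf7 and Mettl23 were the other enzymes of this kind tested, and their log2 differences were -0.53 and 0.05 (neither called by limma).

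Levels were compared between genes as mean CPM per kilobase of exon over the 6 libraries. The order was Prmt1 at 16.2 ± 5.85, Carm1 at 14.3 ± 2.72, Prmt5 at 11.9 ± 4.49, Prmt3 at 10.3 ± 2.40, Padi2 at 8.59 ± 4.47, Prmt8 at 8.43 ± 4.74, Prmt2 at 7.72 ± 2.43, Prmt7 at 4.89 ± 1.6 and Prmt6 at 4.23 ± 2.95 (SD, n = 6). No neighbours in this order differed by more than the SD of their difference over the libraries. The leading gene changed with the library. Prmt1 was the highest member per kilobase in all 3 vehicle libraries, Prmt8 in 15-HETrE 1, and Carm1 in 15-HETrE unnumbered and combined. Padi2 had rank 2 in both of those libraries and ranks 5 to 8 in the others.

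Likeness of pattern was measured over all 11925 other genes that averaged 5 CPM or more. Genes named only by a Gm number or a Rik ending, and pseudogenes, were then left out of the ranking. For Padi2 the smallest root-mean-square differences of centred log2 values over the 6 libraries were those of Nol4l (0.13), Pde1c (0.14) and Pkp4 (0.18). For Prmt8 they were those of Atp6v1g2 (0.11), Slc17a7 (0.13) and Tenm4 (0.14). Slc17a7, the vesicular glutamate transporter of excitatory neurons, had 53.2 to 249.99 CPM with vehicle and 265 to 346 CPM with 15-HETrE. Padi4 had no pattern to match.

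The genes around these enzymes were followed in 7 lists, and 0 of their genes passed limma's test over all genes in either direction. Among 7 partners of the methyltransferases, 3 had a log2 difference above 0 and 4 below, with a median of -0.03 against 0.02 over all genes, and of -0.26 to 0.25 with 1 library left out. Wdr77, the obligate partner of Prmt5 (MEP50), averaged 39.2 ± 3.87 CPM with vehicle and 38.6 ± 5.79 CPM with 15-HETrE. Btg1, which binds Prmt1, stood at 110 and 71.8 CPM on average (log2 difference -0.66, adjusted p 0.538, limma). Of 9 genes of methyl donor supply, 5 were above and 4 below 0, with a median of 0.22, which turned to -0.08 without vehicle combined and to -0.25 with library weights. Mat2a, which makes S-adenosylmethionine, had a log2 difference of -0.08, and Ahcy, which removes the product inhibitor S-adenosylhomocysteine, one of -0.89 (adjusted p 0.700, limma). Of 7 genes tested for free methylarginine and citrulline, 4 were above and 3 below 0. Their median of 0.71 turned to -0.22 without vehicle combined, -0.44 without both combined libraries and -0.25 with library weights, and was 0.08 without 15-HETrE combined, so its direction depended on these libraries. Ddah1 and Ddah2, which break down asymmetric dimethylarginine, differed by 0.71 and -1.19, and neither passed.

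Readers and substrates of the marks are given as counts. Of 5 Tudor-domain readers of methylarginine, 2 did not overlap between groups and were lower, where 8.32% of all genes were. Snd1, one of them, a Tudor-domain nuclease, had 92.8 to 120 CPM with vehicle and 46.5 to 73.4 CPM with 15-HETrE (log2 difference -0.85, SE 0.27, unadjusted p 0.0105, adjusted p 0.425, limma). The other was Smndc1, a spliceosome protein, at 55.0 and 43.6 CPM. No reader was higher without overlap, as 6.84% of all genes were. Among 17 proteins known to carry methylarginine, 13 had a log2 difference below 0, where 49% of all genes did. Their median was -0.31, and lay between -0.46 (without vehicle combined) and -0.14 (without 15-HETrE combined) with 1 library left out. Ncl, the nucleolar protein nucleolin, differed by -0.71 (adjusted p 0.552, limma) and Snrpd3, an Sm protein that Prmt5 methylates, by -0.81 (adjusted p 0.634, limma). Fbl, fibrillarin, differed by 0.29 on the log2 scale although its mean CPM was lower with 15-HETrE, 21.2 and 17.98, and vehicle combined had 1.98 CPM. These counts describe the lists, and membership was chosen with earlier results of these data known. Of the substrates of citrullination, 3 were tested, 2 above and 1 below 0. Mbp, the myelin substrate of Padi2, stood at 1843 and 3178 CPM, with 5458 CPM in 15-HETrE unnumbered as its highest value (log2 difference 0.58, adjusted p 0.739, limma). Gfap differed by 1.06 (adjusted p 0.752, limma) and Vim by -2.51 (adjusted p 0.394, limma).

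**Figure D5:**
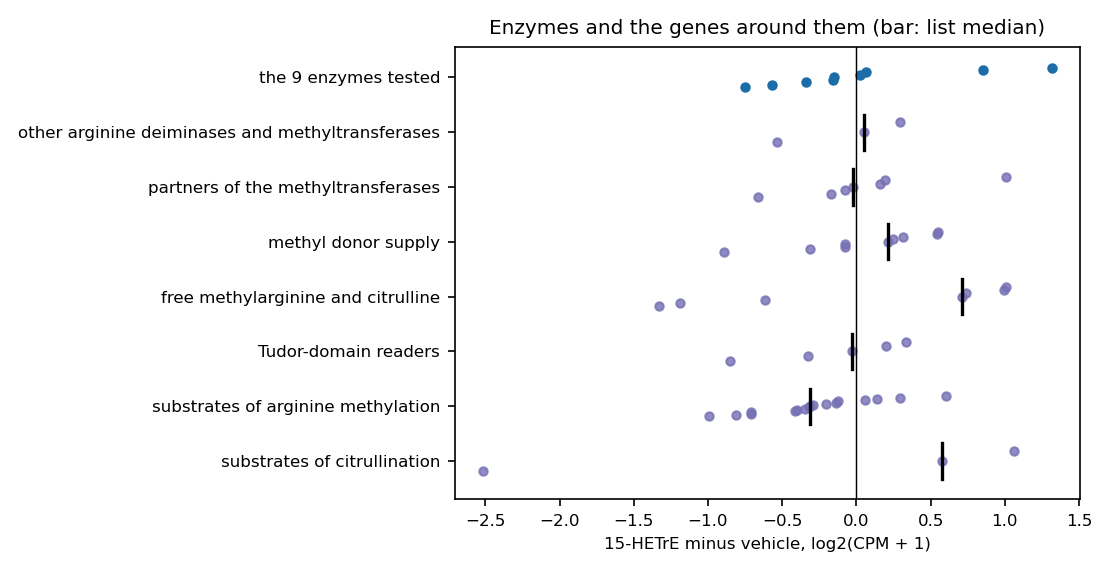
Log2 difference between 15-HETrE and vehicle (x axis) for the 9 enzymes tested (blue) and for the genes tested in each of 7 lists around them (purple, 1 point per gene), with black bars at the list medians. The medians run from -0.31 for substrates of arginine methylation to 0.71 for free methylarginine and citrulline, the latter being -0.22 without vehicle combined, and no gene shown passed limma's test over all genes.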

How the data were processed

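The deposited values are a signal per gene, scaled to about CPM: the columns sum to 960982 to 1080350, so a factor per library was applied by the authors. Trimmomatic, HISAT2, featureCounts, edgeR and the build mm10 are named in the submitters' processing notes. Their versions and settings: not given in the sources used here. Every value was a whole multiple of the smallest value above 0 in its column (100% within 1e-04 reads), which gave back the reads. Libraries were assigned by column name. The number of other columns was 0.

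The 14523 genes averaging 1 CPM or more, 9 of the 10 members among them, were fitted as log2(CPM + 1) with limma 3.58.1 in R 4.3.3, group as the only term and a variance trend. Tests were two-sided, adjusted by Benjamini and Hochberg over all these genes, at a threshold of 0.05. This scale understates the change of low genes. The design had assumed plain CPM, and its test was kept for the scaled values. edgeR 4.0.16 and DESeq2 1.42.0 were run on the recovered reads. Plain limma with a looser filter, edgeR and DESeq2 were checked on simulated counts for the direction of set changes. Fits with library weights, a prefix term, a robust trend or left-out libraries were not checked in this way. Exon lengths and positions are from GENCODE M21 (GRCm38, the assembly of mm10); promoters are from RefSeq. Alternatives were pseudocounts, filters, scalings, library weights, a robust trend, a prefix term and left-out libraries.

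The members, lists and tests were chosen with earlier results of these data known. The genes named are all 10 members, up to 3 genes of each list with the smallest p, the most abundant gene of a marker list, and the 3 genes most like Padi2 and Prmt8. Not every gene that this rule takes is reported here. Padi1, Padi3, Padi6, Wdr77, Mat2a, Ddah1, Fbl and Eno1 were named after their values were seen.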

Additional observations from a re-analysis of the deposited data

How the results depend on the processing

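No paired analysis was possible because the column names carry a replicate number that both groups share for a single number, 1. Of 14523 genes tested, 0 were called with all libraries weighted alike; limma called 2425 with library weights, 8 with the name prefix as a term and 75 without both combined libraries, DESeq2 called 165, and leaving out 1 library gave 0 to 45, the 45 without vehicle combined. Called members numbered 2 with library weights, Prmt1 and Prmt8, and 0 under the other 18 alternatives. Called genes of the lists numbered 50 with library weights, 1 without both combined libraries and 4 with DESeq2, and 0 to 1 with a library left out. The cause was not tested.

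The sign of Padi2, Prmt1, Prmt3, Prmt6 and Prmt8 was the same in all 19 alternatives. Pseudocounts, filters, scalings and the robust trend refit the same libraries, so this count is weak support. Prmt6 differed by only -0.0080 without vehicle combined, and Prmt3 by -0.044 with library weights. Among the libraries of the first prefix alone, Prmt3 and Prmt6 had the other sign, 0.033 and 0.00090. Without both combined libraries the log2 difference was 0.36 for Prmt2, -0.20 for Carm1 and -0.45 for Prmt7; with library weights it was 0.28, -0.29 and -0.062; with the prefix as a term it was -0.010 for Carm1 and 0.21 for Prmt5. For Prmt7 it was -0.017 in edgeR and -0.0058 in DESeq2. Leaving out a library gave -0.40 to 0.21 for Prmt2, -0.091 to 0.28 for Carm1 (-0.047 without vehicle combined), -0.63 to 0.12 for Prmt5 (0.040 without vehicle 2, 0.057 without 15-HETrE unnumbered) and -0.26 to 0.32 for Prmt7 (-0.034 without 15-HETrE 1, -0.16 without 15-HETrE combined). The log2 ratio of Prmt8 to the pan-neuronal markers differed by -0.034 to 0.98 with a library left out, and that of Padi2 to the oligodendrocyte markers by 0.42 to 0.94. TMM and median-of-ratios factors moved the median of all genes by 0.0029 and 0.0012. Vehicle combined, at 5405245 reads, is the shallowest library, where 1 read is 0.180 CPM.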
